A study of Mus musculus with 8 samples.

Results

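The genes examined here flank Mgll on mouse chromosome 6. Mgll encodes monoacylglycerol lipase (MGL), the serine hydrolase that breaks down the endocannabinoid 2-arachidonoylglycerol. In order along the chromosome they are Eefsec, Ruvbl1 and Sec61a1 before Mgll, and Abtb1, Podxl2, Mcm2, Tpra1, Chchd6, Txnrd3 and Klf15 after it. They were picked for their position close to Mgll, other than Mgll and the adjacent gene Kbtbd12. The rule used no expression value, but the choice was made with earlier results of these data known. They are not every gene of the region: 11 other tested genes lie within 1 Mb, such as Gata2 and Plxna1, which are nearer to Mgll than Chchd6. The flanking genes make up 10 of the 32849 gene symbols with a row of counts. Poly(A) RNA was sequenced from frozen esophagus tissue of healthy, untreated mice, in 4 libraries from mice with a global deletion of MGL (MGL KO) and 4 from WT animals, which the study describes as littermates bred in the same facility. The study used adult mice of both sexes and gives the age and sex for its experiments as a whole, not for each library. It counts 4 esophagi per genotype, and the labels do not tie a library to an animal, so p-values measure the spread between these libraries.

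Neighbors of a targeted gene are inherited together with the targeted allele, and adjacent genes can share regulatory DNA. The expression of flanking genes is therefore commonly checked in a knockout line. A count per gene shows how much RNA was recovered, and not the DNA of the region. The flanking genes serve different processes, among them DNA replication, chromatin remodeling, protein translocation, selenoprotein synthesis, mitochondrial structure and transcription.

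None of the 10 flanking genes passed the test between the genotypes. Abtb1 and Tpra1, which both lie within 100 kb after Mgll, were lower in every MGL KO library than in any WT library, at 73.7% and 75.4% of their WT levels. Ruvbl1 was higher in every MGL KO library, by 1.16-fold. The other 7 genes had overlapping groups, among them Klf15, whose mean was 1.30-fold higher in MGL KO with a single MGL KO library below a single WT library. All 10 differences were small beside those of Mgll, which fell by 2.57 on the log2 scale, and Kbtbd12, which rose by 3.04.

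Levels are given as normalized CPM, which are counts divided by the size of their library and by its TMM scaling factor, and differences as log2 fold changes, MGL KO minus WT, with their standard error (SE) and 95% interval. A gene passed where edgeR's quasi-likelihood test gave a Benjamini-Hochberg adjusted p under 0.05 over all genes tested, and intervals are not adjusted for the number of genes. By this rule 0 of 10 flanking genes were called, beside 0.0471% of the 14864 genes tested. The unadjusted p was under 0.05 for 3 of the 10 (Abtb1, Tpra1 and Klf15), beside 8.65% of all genes. The groups did not overlap for 3 of the 10, beside 6.02% of all genes. Of these, 1 was higher in MGL KO, beside 2.72% of all genes in that direction, and 2 were lower, beside 3.3%. The median log2 fold change of the 10 was 0.09 and that of all genes tested 0.02. The median of the 10 turned to -0.067 by voom with quality weights, to -0.050 without MGL KO replicate 2 and to -0.026 without MGL KO replicate 4. The median size of the log2 fold change, whatever its direction, was 0.19 for the 10 and 0.17 for all genes. The exact tests of edgeR, DESeq2, limma-voom and every other fit tried also called 0 of the 10.

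The libraries held between 13479069 and 17090152 counts, and the flanking genes had between 74 and 1527 counts per library, so that all 10 passed the filter on low counts. The targeted gene, Mgll, had 12.6, 16.0, 13.1 and 13.2 normalized CPM in MGL KO replicates 1 to 4 and 83.3, 66.6, 88.3 and 86.7 in WT replicates 1 to 4 (edgeR adjusted p = 0.000133), so every library followed its label. Kbtbd12 lay between 96.0 and 163.9 in MGL KO and between 15.1 and 16.8 in WT (edgeR adjusted p = 0.000133). Markers of skeletal muscle and of squamous epithelium, the main layers of the mouse esophagus, were found in all libraries. MGL KO replicate 4 stood apart, since its 4 airway secretory markers summed to 7132 normalized CPM. That sum was 45.5 in MGL KO replicate 1 and at most 2.40 in every other library. The 6 airway ciliated markers summed to 543.4 normalized CPM in MGL KO replicate 4, beside at most 19.8 elsewhere. In bulk tissue, fewer cells of a type and less RNA per cell cannot be told apart.

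**Figure D1:**
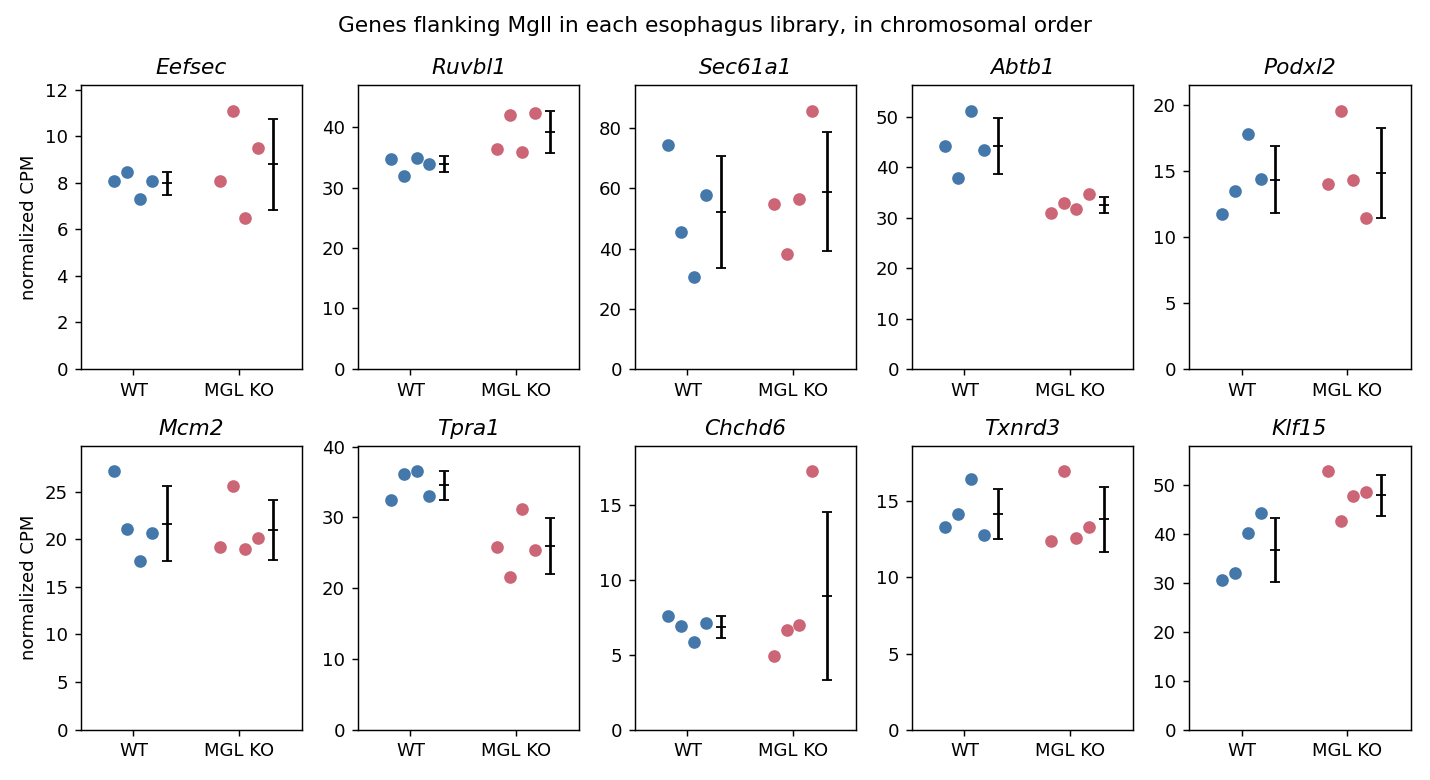
Normalized CPM of the 10 flanking genes in each of the 4 WT and 4 MGL KO libraries, with the mean and SD (bars) beside the points; replicates run from 1 to 4 from left to right. Abtb1 and Tpra1 lie lower in all MGL KO libraries and Ruvbl1 lies higher, while Chchd6 has 1 MGL KO library at 17.3 and the rest of that group at 6.97 or less.

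Abtb1 encodes an ankyrin repeat and BTB domain protein and is the nearest of the 10 to Mgll (chr6:88812892-88819337 on GRCm39, minus strand), with its near end 7.5 kb past the end of Mgll. Its normalized CPM were 30.9, 32.8, 31.8 and 34.6 in MGL KO replicates 1 to 4, and 44.2, 37.8, 51.2 and 43.5 in WT replicates 1 to 4. Every MGL KO library was below every WT library, and the MGL KO libraries lay close together. The group means were 32.5 ± 1.61 and 44.2 ± 5.50 (SD, n = 4 each). The log2 fold change was -0.44 with an SE of 0.11 and a 95% interval of -0.69 to -0.20. The gene did not pass the test (edgeR's quasi-likelihood test, unadjusted p = 0.00284, adjusted p = 0.406). The exact permutation test, two-sided, gave p = 0.0286, the smallest that 4 against 4 libraries allow. Every gene with separated groups reaches this p, so it restates the separation. The adjusted p of Abtb1 over the other fits with all libraries ran from 0.0678 by DESeq2 to 0.923 with the replicate block. Cul3 and Abtb2, an E3 ligase scaffold for BTB proteins and a paralog, were measured as relatives of Abtb1, and 0 of these 2 passed.

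Tpra1 (chr6:88879228-88891657, plus strand, 73.9 kb past Mgll) encodes a multi-pass membrane protein first known from adipocytes. It was measured at 25.8, 21.6, 31.2 and 25.3 normalized CPM in the MGL KO libraries, and 32.5, 36.1, 36.5 and 33.1 in the WT libraries. The groups did not overlap, though MGL KO replicate 3 and WT replicate 1 came near each other. The means were 26.0 ± 3.96 and 34.5 ± 2.05 (SD, n = 4 each). Its log2 fold change of -0.41 had an SE of 0.12 and a 95% interval of -0.69 to -0.13. Tpra1 did not pass either (edgeR, unadjusted p = 0.00954, adjusted p = 0.478; exact permutation p = 0.0286, two-sided). Over the other fits with all libraries its adjusted p ran from 0.199 to 0.923.

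Ruvbl1 and Mcm2 encode AAA+ ATPases of the nucleus. RUVBL1 works with RUVBL2 in chromatin remodelers such as INO80 and TIP60, and MCM2 is a subunit of the helicase that unwinds DNA at replication origins. Ruvbl1 (chr6:88442385-88474554, plus strand, 177.6 kb before Mgll) had normalized CPM of 36.4, 42.1, 35.8 and 42.4 in the MGL KO libraries, and 34.6, 31.9, 34.8 and 34.0 in the WT libraries. All 4 MGL KO libraries were higher, but the lowest of them exceeded the highest WT library by only a small margin. The means were 39.2 ± 3.53 and 33.8 ± 1.34 (SD, n = 4 each). The log2 fold change was 0.21 (SE 0.09), with a 95% interval of -0.0039 to 0.43, and the gene did not pass (edgeR, unadjusted p = 0.0534, adjusted p = 0.584; exact permutation p = 0.0286, two-sided). With library size alone as the scaling, the groups of Ruvbl1 overlapped.

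The upstream sequences of Tpra1 and Ruvbl1 are shown because these 2 genes were separated between the genotypes in opposite directions. They are RefSeq promoter windows, placed on GRCm39 by exact match from a table of GRCm38.p6 and printed on the plus strand, which is the coding strand of both genes, and they end 6 and 7 bases before the RefSeq start. Capitals mark the CCAAT box, a promoter element bound by NF-Y, as CCAAT or its reverse complement ATTGG. Each printed run holds 1 copy.
Tpra1, chr6:88878983-88879227: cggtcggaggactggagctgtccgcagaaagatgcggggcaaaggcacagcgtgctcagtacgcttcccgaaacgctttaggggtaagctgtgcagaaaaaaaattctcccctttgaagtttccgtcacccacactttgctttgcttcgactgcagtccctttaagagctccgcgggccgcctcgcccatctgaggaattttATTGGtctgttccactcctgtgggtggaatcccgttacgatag
Ruvbl1, chr6:88442141-88442384: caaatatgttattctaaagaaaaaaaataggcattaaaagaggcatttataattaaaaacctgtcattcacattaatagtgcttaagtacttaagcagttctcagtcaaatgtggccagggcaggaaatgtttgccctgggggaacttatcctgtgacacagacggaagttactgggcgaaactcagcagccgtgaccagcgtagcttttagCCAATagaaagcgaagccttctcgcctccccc
A CCAAT box on either strand was found in the 250 bases before the start of 33.8% of 32851 promoters, so this shared feature is a common one. The full window of Ruvbl1 held another copy across the end of the printed run. The full windows differed in base composition, with 42.4% G and C in Ruvbl1 and 54.8% in Tpra1, beside a median of 52.4% over all promoters. Abtb1, the other gene with separated groups, had no CCAAT box in its window, which held 66.0% G and C.

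The partners of RUVBL1 showed a mixed picture. Of 10 genes of RUVBL complexes, 0 passed. An unadjusted p under 0.05 was found for 3, beside 8.65% of all genes tested, and 1 had groups that did not overlap, beside 6.02%. That gene was Actl6a, an actin-like subunit of several remodelers, with 34.9 ± 2.59 normalized CPM in MGL KO and 28.8 ± 1.12 in WT (log2 fold change 0.28, SE 0.09, edgeR adjusted p = 0.503). Ruvbl2, the direct partner, had 37.8, 44.8, 39.8 and 51.4 normalized CPM in the MGL KO libraries and 34.3, 32.4, 39.2 and 30.4 in the WT libraries, so that 1 WT library lay among the MGL KO values. Between the groups Ruvbl2 differed by a log2 fold change of 0.35 (SE 0.13, edgeR adjusted p = 0.523). The third was Ino80, the remodeler's ATPase, which was lower in MGL KO on average with overlapping groups, at 49.3 ± 6.05 normalized CPM beside 60.0 ± 5.98 in WT (log2 fold change -0.28, SE 0.12, unadjusted p = 0.0376, edgeR adjusted p = 0.559). Ruvbl2 and Ino80 were named after their values were seen. Over the list, 4 genes were above 0 and 6 below, with a median log2 fold change of -0.04. Over all 71 tested partner genes of the flanking genes, 9.86% had an unadjusted p under 0.05 and 2.82% had groups that did not overlap.

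Mcm2 (chr6:88860452-88875762, minus strand, 55.1 kb past Mgll) lies between Abtb1 and Tpra1 on the chromosome, yet its groups overlapped. Its normalized CPM were 19.2, 25.6, 18.9 and 20.2 in the MGL KO libraries, and 27.1, 21.1, 17.7 and 20.7 in the WT libraries. The highest and the lowest library were both WT, and they also had the highest and the lowest sum of proliferation markers, 263.9 and 99.1 normalized CPM. The log2 fold change of Mcm2 was -0.05 (SE 0.16, 95% interval -0.41 to 0.32, edgeR adjusted p = 0.940), and it turned to 0.0015 without MGL KO replicate 1 and to 0.08 without WT replicate 1. Of 14 tested genes of the MCM helicase and of origin licensing, 0 passed and 0 had an unadjusted p under 0.05 in edgeR's test, with a median log2 fold change of 0.13. Mcm7, another subunit of the same ring, was at -0.03 (adjusted p = 0.950).

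**Figure D2:**
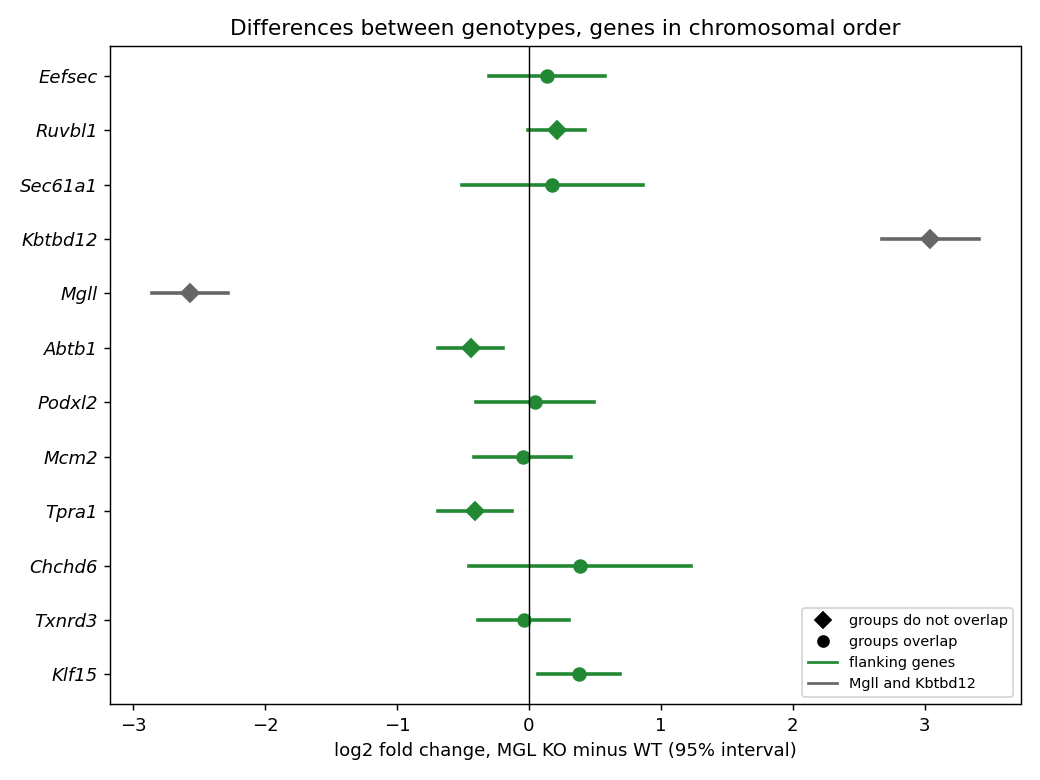
Log2 fold change, MGL KO minus WT, with its 95% interval for the 10 flanking genes and for Mgll and Kbtbd12, in chromosomal order. The intervals of Abtb1, Tpra1 and Klf15 leave out 0, and that of Ruvbl1 starts just below it; no flanking gene comes near the differences of Mgll (-2.57) and Kbtbd12 (3.04).

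Sec61a1 and Podxl2 encode membrane proteins. SEC61A1 forms the channel through which new proteins enter the endoplasmic reticulum, and podocalyxin-like 2, also called endoglycan, is a sialomucin of the CD34 family. Sec61a1 (chr6:88480561-88495899, minus strand, 156.2 kb before Mgll) varied more among libraries of a group than any of the 10 except Chchd6 in MGL KO. The MGL KO libraries had 55.0, 38.1, 56.5 and 85.8 normalized CPM, and the WT libraries 74.4, 45.5, 30.4 and 57.9. The groups overlapped widely. The pair of highest libraries, MGL KO replicate 4 and WT replicate 1, had the lowest sums of the 10 skeletal muscle markers, 35414 and 46330 normalized CPM. MGL KO replicate 4 is also the library with airway markers. The pair of lowest libraries, WT replicate 3 and MGL KO replicate 2, had the highest, 74683 and 88178. Other tissues moved as well. Adipocyte markers summed to 181.5 and 171.8 normalized CPM in MGL KO replicate 4 and WT replicate 1, the highest, and to 3.48 and 9.29 in WT replicate 3 and MGL KO replicate 2, the lowest. The latter pair also had the lowest sums of basal and of differentiated squamous markers. The part of airway, adipose or epithelial RNA in the level of Sec61a1 was not tested. The part of muscle in Sec61a1 was tested by no more than a fit with the mean log2 CPM of the muscle markers as a covariate. In that fit its log2 fold change was -0.01, in place of 0.18 (SE 0.30, 95% interval -0.51 to 0.86, edgeR adjusted p = 0.872). It was also below 0 without MGL KO replicate 4, at -0.06, and without WT replicate 3, at -0.0026.

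Of 10 genes of the SEC61 translocon and its helpers, 0 passed and 0 had an unadjusted p under 0.05, and 8 were above 0 with a median log2 fold change of 0.06. Sec61b, the beta subunit of the channel, was at 0.03 (edgeR adjusted p = 0.967).

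Podxl2 (chr6:88819536-88852075, minus strand, 14.2 kb past Mgll) is the direct neighbor of Abtb1, and its groups overlapped. Its normalized CPM were 14.0, 19.6, 14.4 and 11.4 in the MGL KO libraries, and 11.8, 13.5, 17.8 and 14.4 in the WT libraries. The highest libraries were MGL KO replicate 2 and WT replicate 3, those with the most skeletal muscle signal. Podxl2 had a log2 fold change of 0.05 (SE 0.20, 95% interval -0.40 to 0.49, edgeR adjusted p = 0.957), and it was -0.11 without MGL KO replicate 2, -0.04 without WT replicate 1 and -0.02 with library size alone. The counts of Podxl2 could include RNA of Gm15612, an antisense noncoding gene that shares 1521 exonic bases with it, because the use of strand in counting is not stated. Gm15612 itself had between 1 and 7 counts per library. Exons of Abtb1, Tpra1, Ruvbl1, Sec61a1 and Eefsec overlap antisense noncoding genes of the annotation that had no row of their own in the counts. Of the family of Podxl2, Podxl was at a log2 fold change of -0.19, and Cd34, a marker of endothelium and stroma, was at -0.52 with overlapping groups (86.5 ± 23.8 and 123.8 ± 18.6 normalized CPM, SD, n = 4 each, edgeR adjusted p = 0.531). Cd34 was named after its value was seen.

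Eefsec and Txnrd3 are both tied to selenocysteine. EEFSEC is the elongation factor that delivers selenocysteine to the ribosome, and TXNRD3 is a thioredoxin and glutathione reductase that carries this amino acid. Eefsec (chr6:88234309-88423573, minus strand, 228.5 kb before Mgll) had 8.08, 11.1, 6.47 and 9.50 normalized CPM in the MGL KO libraries, and 8.09, 8.45, 7.30 and 8.08 in the WT libraries. All WT values lay within the MGL KO range. The log2 fold change was 0.14 (SE 0.19, 95% interval -0.30 to 0.58, edgeR adjusted p = 0.841). It was 0.01 without MGL KO replicate 2, the highest library, and -0.089 by voom with quality weights. Of 6 other genes of selenoprotein synthesis, 0 passed and 0 had an unadjusted p under 0.05. Among them Secisbp2, which binds the selenocysteine insertion element, was at 0.07 (adjusted p = 0.898).

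Txnrd3 (chr6:89620934-89652512, plus strand, 815.6 kb past Mgll) had 12.4, 17.0, 12.6 and 13.3 normalized CPM in the MGL KO libraries, and 13.3, 14.2, 16.5 and 12.8 in the WT libraries. The groups overlapped, and the highest library of each was again the one with the most skeletal muscle signal. Its log2 fold change was -0.04 (SE 0.15, 95% interval -0.38 to 0.30, edgeR adjusted p = 0.948). It was above 0 without MGL KO replicate 1 (0.01), MGL KO replicate 3 (0.0030) or WT replicate 3 (0.05). It was also above 0 with the mean log2 CPM of the muscle markers as a covariate (0.0038). Of 8 tested genes of the thioredoxin system and other selenoproteins, 0 passed and 0 had an unadjusted p under 0.05. Txnrd1, the cytosolic reductase, was at -0.03 (adjusted p = 0.968).

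Chchd6 (chr6:89360126-89572640, minus strand, 554.8 kb past Mgll) encodes a subunit of the MICOS complex, which shapes the cristae of mitochondria. Its normalized CPM were 4.90, 6.68, 6.97 and 17.3 in the MGL KO libraries, and 7.59, 6.91, 5.85 and 7.11 in the WT libraries. The 7 other libraries lay close together, and MGL KO replicate 4, the library with airway markers, stood alone. With it the log2 fold change was 0.39 (SE 0.37, 95% interval -0.45 to 1.23, edgeR adjusted p = 0.772), and without it -0.15. By voom with quality weights it was -0.045 with all libraries. The part of airway RNA in this value was not tested. Of 8 other genes of MICOS and the inner membrane, 0 passed and 0 had an unadjusted p under 0.05. Immt, the core of the complex, was at -0.01 (adjusted p = 0.986).

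**Figure D3:**
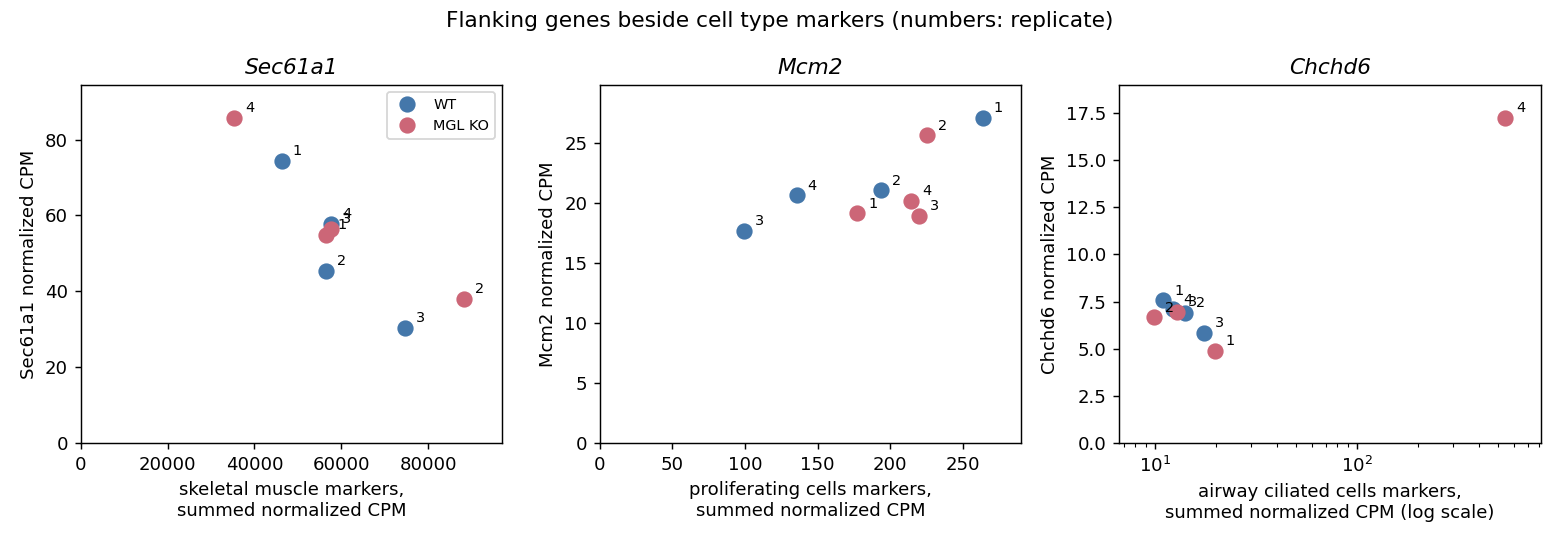
Normalized CPM of Sec61a1, Mcm2 and Chchd6 in each library (vertical axes) against the summed normalized CPM of skeletal muscle, proliferation and airway ciliated markers (horizontal axes, the last one logarithmic), with replicate numbers beside the points. Sec61a1 is highest in the libraries with least muscle signal, Mcm2 is highest and lowest at the ends of the proliferation sums, and Chchd6 stands out at 17.3 in the library with 543.4 of ciliated markers.

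Klf15 (chr6:90438998-90452220, plus strand, 1633.7 kb past Mgll) is the farthest of the 10. It encodes a Krüppel-like transcription factor that is induced by glucocorticoids, follows the time of day in muscle and liver, and drives genes of amino acid breakdown. Its normalized CPM were 52.8, 42.6, 47.8 and 48.7 in the MGL KO libraries, and 30.7, 32.1, 40.2 and 44.3 in the WT libraries. The groups overlapped only in that MGL KO replicate 2 lay below WT replicate 4. The means were 48.0 ± 4.19 and 36.8 ± 6.54 (SD, n = 4 each). The log2 fold change was 0.38 (SE 0.14, 95% interval 0.07 to 0.69), and the gene did not pass (edgeR, unadjusted p = 0.0214, adjusted p = 0.523; exact permutation p = 0.0571, two-sided). Over the other fits with all libraries its adjusted p ran from 0.257 to 0.923.

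The upstream window of Klf15 was the only one among the 9 flanking genes with a RefSeq promoter entry to hold the E-box CACGTG, the palindrome bound by CLOCK and BMAL1 and by other bHLH factors. It held 2 copies, which are shown with their surroundings on the plus strand of GRCm39 and with the E-box in capitals. The window lies before the RefSeq start, but GENCODE starts Klf15 farther out, so both runs lie inside the gene as given above, in a window that holds annotated exon sequence of Klf15.
Klf15 distal E-box, chr6:90439318-90439347: ctcccgaggtccCACGTGgtctgcacttcg
Klf15 proximal E-box, chr6:90439374-90439403: tagaacccgtctCACGTGcgcatcggagga
At least 1 such E-box was found in the 250 bases before the start of 6.02% of all promoters, and 2 or more in 0.429%, or 141 of 32851. The window of Klf15 was also rich in G and C, at 72.0%. A match of letters does not show binding in the esophagus.

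Genes linked to KLF15 and genes that glucocorticoids induce, as they do Klf15, were read as 2 lists. Of 6 tested genes of amino acid metabolism and atrophy linked to KLF15, 0 passed. Groups did not overlap for 1 of the 6, beside 6.02% of all genes tested. An unadjusted p under 0.05 was found for 2, in opposite directions, beside 8.65% of all genes. Gpt, an alanine aminotransferase, had 41.9, 41.3, 46.1 and 40.5 normalized CPM in the MGL KO libraries, and 47.8, 58.6, 68.6 and 57.4 in the WT libraries. Every MGL KO library was below every WT library, the opposite direction to Klf15. Its log2 fold change was -0.45 (SE 0.12, unadjusted p = 0.00382, edgeR adjusted p = 0.433). The other was Trim63, a muscle ubiquitin ligase, at 0.59 (adjusted p = 0.560), named after its value was seen. All 5 glucocorticoid-induced genes measured, Tsc22d3, Klf9, Per1, Fkbp5 and Zbtb16, had log2 fold changes from 0.02 to 0.71 with a median of 0.38, and 0 of them passed, beside 7884 of all 14864 genes tested with a value above 0. WT replicate 4 was the highest WT library for each of the 5, at 115.2 normalized CPM of Per1 beside at most 42.6 in the other WT libraries and 87.0 of Fkbp5 beside at most 57.9. Klf9, a relative of Klf15, was at 0.37 (edgeR adjusted p = 0.659).

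Per length, Abtb1 and Ruvbl1 led the flanking genes in WT esophagus. In normalized CPM per kb of the Ensembl canonical transcript, WT levels were 22.2 ± 2.76 for Abtb1, 20.2 ± 0.802 for Ruvbl1, 16.4 ± 5.88 for Sec61a1 and 14.8 ± 2.63 for Klf15 (SD, n = 4). Each of these 4 lay within the spread of the next in this order, while Klf15 was below Abtb1 and Ruvbl1 by more than their spread. Tpra1 followed at 8.10 ± 0.482, and then Mcm2 at 6.42 ± 1.17, Podxl2 at 6.14 ± 1.09, Chchd6 at 6.09 ± 0.650 and Txnrd3 at 5.0 ± 0.578, which lay within their spread of each other. Eefsec was lowest at 2.92 ± 0.178. In MGL KO, Ruvbl1 was first at 23.4, with Klf15 at 19.3, Sec61a1 at 18.5 and Abtb1 at 16.3. With the length of all annotated exons in place of the canonical transcript, the WT order changed, and Ruvbl1 led at 16.5 with Abtb1 at 8.44.

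The differences followed no simple order of distance from Mgll. The 4 flanking genes within 100 kb, all after Mgll, comprised the 2 lower genes Abtb1 and Tpra1 and the 2 overlapping genes Podxl2 and Mcm2. The 6 beyond 100 kb comprised Ruvbl1, which was higher, and 5 genes with overlapping groups. Within 5 Mb of Mgll, 83 other genes were tested, of which 0 passed edgeR's quasi-likelihood test, 13 had an unadjusted p under 0.05 (15.7%, beside 8.65% of all genes) and 8 had groups that did not overlap (9.64%, beside 6.02%). Other tests called 1 of the 83 (Dysf, by the exact tests, voom and the fit with the muscle covariate) or 2 (Dysf and Nup210, by DESeq2). Of the 8 with separated groups, 2 were higher in MGL KO and 6 lower. None of the 11 within 1 Mb was among these 8, and their log2 fold changes ran from -0.43 to 0.12. Within 1 Mb the genes with separated groups were thus Mgll, Kbtbd12, Abtb1, Tpra1 and Ruvbl1.

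The nearest of the 8 was Prokr1, a prokineticin receptor gene 1.08 Mb before Mgll, with 1.50 ± 0.234 normalized CPM in MGL KO and 2.52 ± 0.377 in WT (SD, n = 4 each, log2 fold change -0.74, edgeR adjusted p = 0.503). The next was Nup210, a nuclear pore gene 2.18 Mb past Mgll, at -0.47 (SE 0.11, adjusted p = 0.388). A430078I02Rik, Tia1 and Nat8f3 followed, between 2.19 and 2.91 Mb before Mgll, at -1.30, -0.26 and -1.24 (adjusted p = 0.478, 0.546 and 0.509 in edgeR's test). A430078I02Rik and Nat8f3 were low, at means of 0.54 and 0.53 normalized CPM in MGL KO and 1.35 and 1.26 in WT. MGL KO replicates 1 to 4 held 7, 7, 9 and 10 counts of A430078I02Rik, and 6, 6, 15 and 5 of Nat8f3. These 5 nearest genes were all lower in MGL KO. A430078I02Rik and Nat8f3 passed the filter on low counts only through their WT libraries, so for them a lower level in MGL KO was favored in advance. The shared direction was not tested.

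**Figure D4:**
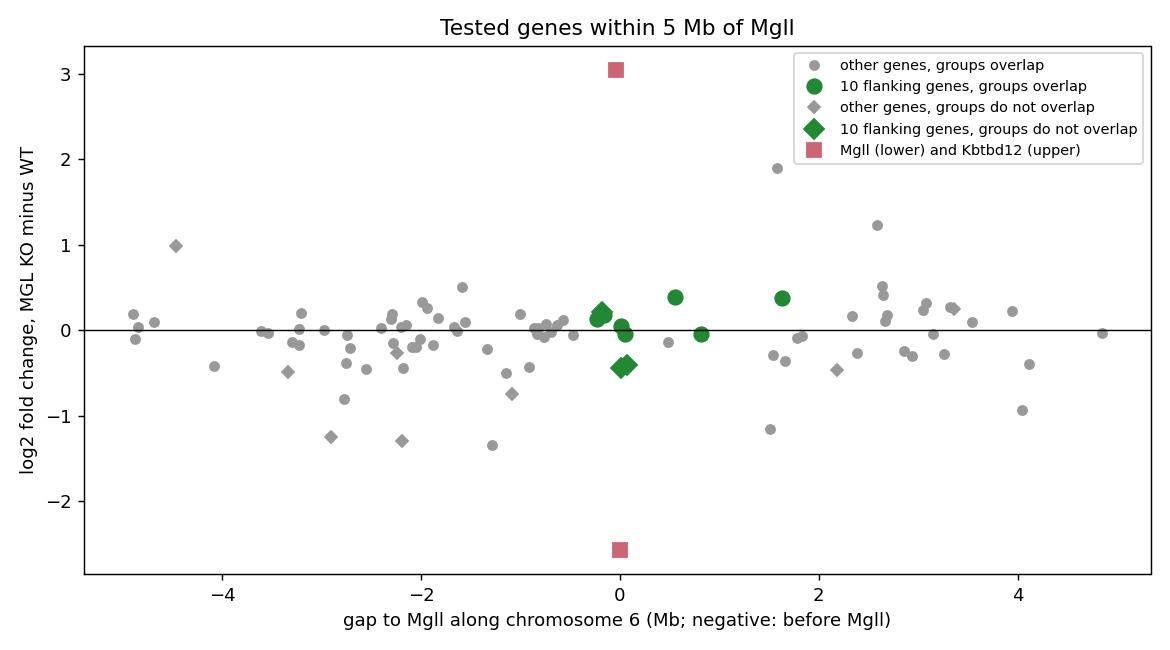
Log2 fold change, MGL KO minus WT, of every tested gene within 5 Mb of Mgll against its gap to Mgll in Mb, with the 10 flanking genes in green and genes with separated groups as diamonds. Mgll and Kbtbd12 stand alone near 0 Mb, and the flanking genes lie between -0.44 and 0.39, within the range of the 83 other genes.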

How the data were processed

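Esophagus tissue was compared between 4 MGL KO and 4 WT libraries, grouped by the sample labels. The authors selected poly(A) RNA and, per the labels and the submitters' processing notes, used FastQC 0.11.9, Cutadapt and STAR 2.7.10b with GRCm39, and deposited whole-number counts per gene symbol. The counting tool, annotation and use of strand are not given in the sources used here. Every deposited column was matched to a library.

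From the counts, filterByExpr (minimum count 10) kept 14864 of 22721 symbols with a count. The groups were compared with edgeR 4.0.16 in R 4.3.3 by the quasi-likelihood test with TMM factors and Benjamini-Hochberg adjustment at 0.05. An SE is the absolute log2 fold change over the root of its F statistic, and the script was tested on simulated data. Single genes were also compared by the exact permutation test over all 70 splits, two-sided, on log2 normalized CPM with a prior count of 1. Depth ranged from 13479069 to 17090152 counts, and 3 counts, the limit for a count of 0, were 0.167 to 0.271 normalized CPM, for counting error only. No libraries of a group agreed within sampling noise (chi-square per degree of freedom at least 13.6).

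The text names the 10 flanking genes, Mgll, Kbtbd12, the 5 nearest other genes within 5 Mb with separated groups, and from the partner lists the genes with separated groups or else 1 fixed partner. Others are marked as named after their values were seen. Per1, Fkbp5, Zbtb16, Abtb2, Cul3, Gata2 and Plxna1 were named outside this rule without such a mark. The members and lists were chosen with earlier results of these data known. Positions came from GENCODE mouse release M39 (93.0% of symbols found), and the E-box and CCAAT box were searched on both strands. Alternatives were the study's exact test, DESeq2 1.42.0, voom with quality weights (limma 3.58.1), other scalings and filters, a robust fit, a replicate block, a muscle covariate, and leaving out each library. Overlap of groups under other scalings was added after seeing the data.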

Additional observations from a re-analysis of the deposited data

Results flagged for a closer look

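In 40 groups of 4 libraries (the 10 flanking genes, Mgll and Kbtbd12 and the 8 marker sums, each in MGL KO and WT), 4 held a library far from the other 3 by Dixon's criterion, where chance gives about 2. Chchd6 stood at 17.3 normalized CPM in MGL KO replicate 4, with the nearest library of the group at 6.97. The same library was far above the rest of its group in the summed airway ciliated markers, at 543.4 normalized CPM beside 19.8, and in the summed airway secretory markers, at 7132 normalized CPM beside 45.5. WT replicate 3 had the lowest summed basal squamous markers of its group, 2986 normalized CPM beside 4420.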

How the results depend on the processing

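The 10 flanking genes were refitted in 12 other ways with all libraries and 8 times with 1 library left out, and 0 of the 10 passed in any of the 20. Of the 200 log2 fold changes obtained, 185 kept their direction. With all libraries, voom with quality weights turned Eefsec to -0.089 and Chchd6 to -0.045, library size alone turned Podxl2 to -0.016, and the skeletal muscle covariate turned Sec61a1 to -0.0081 and Txnrd3 to 0.0038. With 1 library left out, log2 fold changes ran from -0.060 to 0.40 for Sec61a1, -0.11 to 0.17 for Podxl2, -0.15 to 0.081 for Mcm2, -0.15 to 0.59 for Chchd6 and -0.15 to 0.049 for Txnrd3. Abtb1 (-0.51 to -0.36), Tpra1 (-0.51 to -0.33), Ruvbl1 (0.17 to 0.25), Klf15 (0.30 to 0.48) and Eefsec (0.01 to 0.26) kept theirs. The median log2 fold change of the 10 was -0.067 by voom and between -0.050 and 0.13 with 1 library left out, lowest without MGL KO replicate 2. The cause was not tested.

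With the replicate block, 0 of the 10 were called. The labels do not say whether libraries of the same replicate number were paired. In their deviations from the group means, same-numbered libraries had correlations between -0.28 and 0.08. Differently numbered libraries were not compared, so these values cannot decide whether there was a pairing. Over all genes, 7 were called, 2 with the replicate block, 64 by the exact test on filtered genes, 42 by the exact test on all genes, 133 by DESeq2, 25 by voom, 20 with the muscle covariate, 2 by the robust fit and 2 with no filter, and 2 to 5 with 1 library left out.

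The SE of 0.09 to 0.37 gave 95% intervals of 0.21 to 0.84 on either side of a log2 fold change, so differences smaller than that could not be told from 0 with these 8 libraries.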

Other observations

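Farther from Mgll, Rbsn, Sfxn5 and Dysf also had groups that did not overlap, and these genes were named after their values were seen. Dysf, the gene of the muscle protein dysferlin, 4.46 Mb before Mgll, had 237.3, 299.3, 245.2 and 158.8 normalized CPM in the MGL KO libraries and 96.6, 108.4, 138.3 and 132.0 in the WT libraries. Its log2 fold change of 0.98 (SE 0.20, edgeR adjusted p = 0.278) came with the lowest adjusted p of the 83 genes. The study itself reported Dysf as up-regulated in MGL KO, by edgeR's exact test and by quantitative PCR. Rbsn, which encodes the endosomal protein rabenosyn-5 and lies 3.36 Mb past Mgll, had 41.6, 43.0, 42.0 and 38.2 normalized CPM in the MGL KO libraries and 33.4, 34.9, 33.5 and 36.9 in the WT libraries. Its log2 fold change was 0.25 (SE 0.08, edgeR adjusted p = 0.507). Sfxn5, a mitochondrial carrier gene 3.34 Mb before Mgll, had 4.47, 4.60, 5.80 and 6.13 normalized CPM in MGL KO and 8.09, 7.02, 6.97 and 7.37 in WT, with a log2 fold change of -0.49 (SE 0.18, edgeR adjusted p = 0.533).

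Cfap100, a gene of cilia 1.58 Mb past Mgll and so close to Klf15, had the largest log2 fold change of the 83 other genes, 1.90 (SE 0.78, edgeR adjusted p = 0.559), and was likewise named after its values were seen. Its normalized CPM were 33.5 in MGL KO replicate 4, the library with airway markers, and between 2.44 and 5.69 in the other 7 libraries. Klf15 had 48.7 normalized CPM in that library, within the range of the other MGL KO libraries.

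Tsc22d3, the glucocorticoid-induced leucine zipper gene, had 248.7, 223.0, 234.9 and 195.0 normalized CPM in the MGL KO libraries and 98.0, 112.6, 136.0 and 203.4 in the WT libraries, so that WT replicate 4 lay above MGL KO replicate 4. Its log2 fold change was 0.71 (SE 0.22, edgeR adjusted p = 0.478). It too was named after its values were seen. WT replicate 4 was also the WT library with the most Klf15, at 44.3 normalized CPM.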
